A study of Mus musculus with 4 samples.

Results

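The set described here holds 10 genes of skeletal muscle excitation-contraction coupling and the calcium store: Ryr1, Cacna1s, Cacng1, Atp2a1, Casq1, Casq2, Jph1, Jph2, Trdn and Stac3. They were given as a list of symbols, found in the authors' deposited comparison table and joined by Ensembl identifier to the count files, where all 10 were present among 49585 genes. The data are strand-specific mRNA libraries, 4 in all, from growing C2C12 cells. C2C12 is a myoblast line from C3H mice whose cells fuse into contractile myotubes when serum is withdrawn. In 2 libraries the cells overexpressed C/EBPβ, a leucine-zipper transcription factor, from a retrovirus. In the other 2 libraries they carried the empty retroviral vector pLXSN. Cells of both groups were selected in 1200 μg/ml G418 for 7 days, pooled, and left to proliferate for 48 h, in medium stated for the line to hold 10% serum. The labels give no promoter for the transgene and do not say whether replicates came from separate transductions, so the p-values reflect no more than the spread between these libraries, which may be technical.

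In skeletal muscle an action potential runs down the transverse tubule, where the voltage-sensing calcium channel of the tubule faces the calcium release channel of the sarcoplasmic reticulum. Movement of the voltage sensor opens the release channel directly, and calcium pours out of a store in which it is held by calsequestrin. Junctophilins hold the facing membranes together, and a calcium pump refills the store. The genes for this machinery are switched on late in muscle differentiation, and growing myoblasts are known to express most of them weakly.

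RNA of 8 of the 10 genes fell in C/EBPβ cells, and no gene rose (none at an unadjusted p below 0.05 or under DESeq2). Trdn fell most, to 17.7% of the empty vector level, followed by Cacna1s (23.8%), Casq2 (27.4%), Atp2a1 (30.4%) and Ryr1 (34.7%). Stac3, Cacng1 and Jph1 fell less, to 50.9%, 54.0% and 73.5%. Jph2 and Casq1 did not pass the test. Levels of single genes are given below as CPM, counts relative to the library total after TMM scaling, and changes of named genes as log2 fold changes. A gene was called when its p-value, adjusted by Benjamini-Hochberg over 15078 genes in the quasi-likelihood test of edgeR, was below 0.05; this is the test behind every adjusted p here. By that rule 24.9% of all tested genes were called, 10.8% lower and 14.1% higher in C/EBPβ cells. At least 2-fold falls were called for 5 of the 10 genes, and for 3.46% of all tested genes. The median log2 fold change (C/EBPβ over empty vector) was -1.25 over the 10 genes and 0.00 over all tested genes. Of the 10 genes, 3 (Cacna1s, Casq1 and Trdn) passed the low-count filter only through their empty vector libraries. With no filter 8 of the 10 were again called lower.

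**Figure D1:**
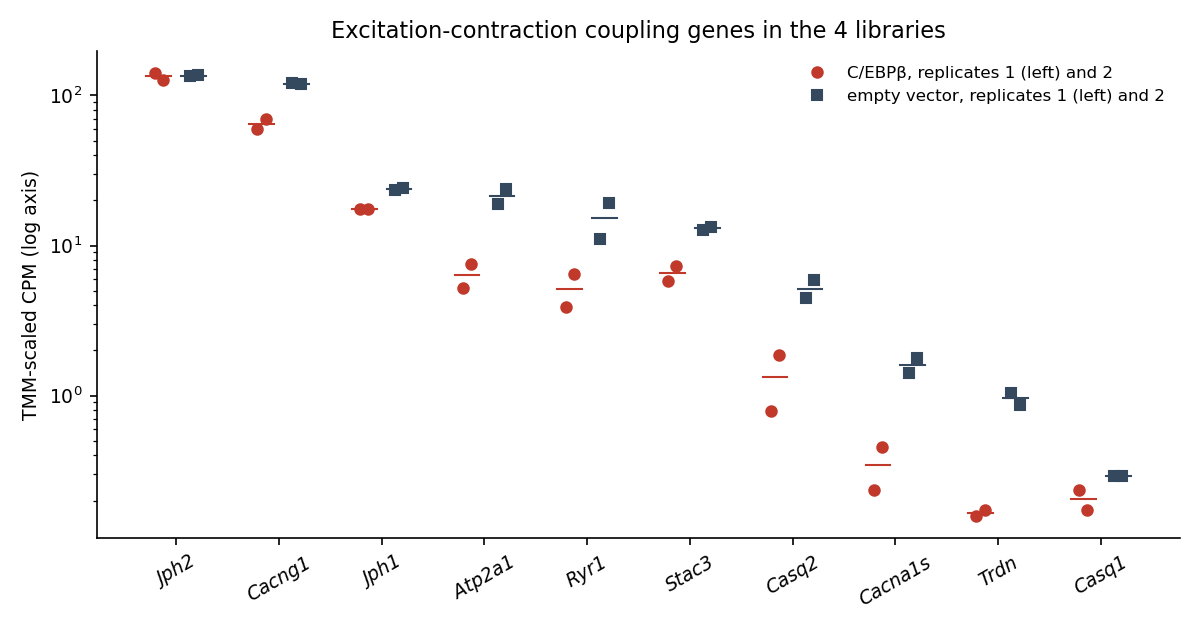
Level of each gene in each library, as counts of the gene relative to the library total (CPM), scaled by the TMM factor, on a log axis. Red circles are the 2 C/EBPβ libraries, dark squares the 2 empty vector libraries, and lines their means. For 9 of the 10 genes both C/EBPβ libraries lie below both empty vector libraries, as for 32.9% of all tested genes, and for Jph2 the groups overlap.

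**Figure D2:**
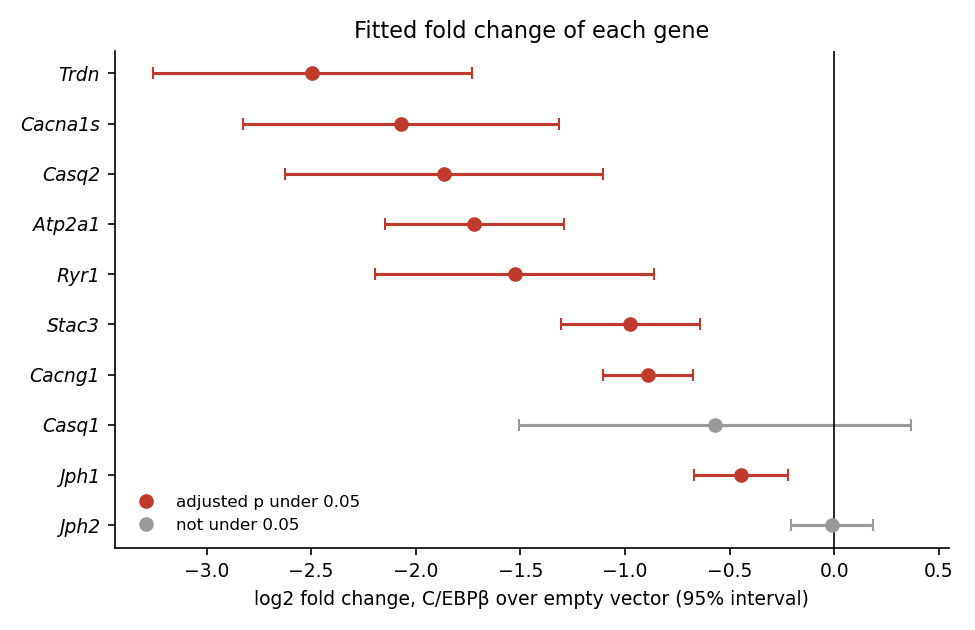
Fitted log2 fold change of each gene, C/EBPβ over empty vector, with its 95% interval from the edgeR fit. Red genes have an adjusted p below 0.05. The points run from -2.49 for Trdn to -0.01 for Jph2, and only the intervals of Casq1 and Jph2 include 0.

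The libraries held 38656497 and 92027838 counts for C/EBPβ, and 40912955 and 37566321 for the empty vector. Cebpb stood at 483 and 473 CPM in C/EBPβ cells, against 85.0 and 76.8 CPM in empty vector cells (log2 fold change 2.56, SE 0.09, adjusted p = 3.03e-06), reads of the vector-borne copy included where they map to it. The myoblast label was borne out by Myod1, the determination factor, at 129 to 137 CPM in C/EBPβ cells and 166 to 175 CPM in empty vector cells. All 10 listed myoblast genes had enough counts to test. All 11 tested genes of muscle differentiation fell, against 10.8% of all tested genes called lower. Among them was Myog, the factor that starts terminal differentiation, at 5.32 and 10.9 CPM in C/EBPβ cells against 61.0 and 51.4 CPM in empty vector cells. Of the 11, Ckm and Myh8, named here after their values were seen, passed the low-count filter only through their empty vector libraries. In bulk RNA a smaller share of cells entering differentiation and less RNA per cell cannot be told apart. The part of this shift in the falls of the 10 genes was not tested.

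Upstream DNA of 5 of the genes is shown so that 4 genes that fell can be read beside Jph2, which was not called. RefSeq promoter windows on GRCm38.p6 were found for 6 of the 10 genes, these 5 and Casq1. Each line gives the bases before the annotated start, 5′ to 3′ on the gene's strand, and ends before the more upstream of the RefSeq start and the start in the count files. The stretches are chr7:126463109-126463323 (minus strand), chr1:136052561-136052749 (plus), chr3:102086165-102086414 (plus), chr7:29125180-29125401 (minus) and chr2:163397994-163398243 (minus). Capitals mark matches, on either strand, to the E-box CANNTG bound by MyoD-type factors, to the MEF2 motif, or to a C/EBP motif written as TTGCNNAA.
Atp2a1: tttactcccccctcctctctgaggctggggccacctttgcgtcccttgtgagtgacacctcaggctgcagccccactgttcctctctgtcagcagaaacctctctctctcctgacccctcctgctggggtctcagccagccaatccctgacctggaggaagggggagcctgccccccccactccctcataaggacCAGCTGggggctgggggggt
Cacna1s: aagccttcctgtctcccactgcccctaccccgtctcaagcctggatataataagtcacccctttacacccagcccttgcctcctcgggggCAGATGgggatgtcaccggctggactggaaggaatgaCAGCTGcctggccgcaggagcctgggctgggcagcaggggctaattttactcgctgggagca
Casq2: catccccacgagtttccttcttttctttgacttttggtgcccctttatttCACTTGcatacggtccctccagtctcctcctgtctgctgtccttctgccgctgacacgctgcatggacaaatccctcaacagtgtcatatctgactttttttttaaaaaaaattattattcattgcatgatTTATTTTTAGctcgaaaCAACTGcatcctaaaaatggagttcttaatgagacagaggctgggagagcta
Ryr1: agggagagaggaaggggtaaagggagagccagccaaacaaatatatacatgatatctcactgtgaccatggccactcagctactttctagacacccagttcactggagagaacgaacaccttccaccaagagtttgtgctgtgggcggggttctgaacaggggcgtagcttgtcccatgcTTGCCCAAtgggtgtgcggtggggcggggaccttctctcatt
Jph2: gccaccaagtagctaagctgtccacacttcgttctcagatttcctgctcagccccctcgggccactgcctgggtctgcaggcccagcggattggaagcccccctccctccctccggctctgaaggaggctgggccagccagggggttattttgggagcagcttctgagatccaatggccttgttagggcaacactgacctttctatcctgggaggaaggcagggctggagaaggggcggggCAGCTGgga

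Matches were counted in the 250 bases before each RefSeq start. An E-box was present for 5 of the 6 genes and in 66.2% of 32841 windows of all genes. The form CAGCTG, which is also counted as an E-box, was present for 4 of the 6 (Atp2a1, Cacna1s, Casq1 and Jph2) and in 13.0% of all windows. It lies 55 to 50 bases before the RefSeq start of Atp2a1 and 123 to 118 bases before that of Cacna1s, both of which fell. In Jph2, which was not called, it lies 9 to 4 bases before the more upstream of its 2 RefSeq starts. Casq2 held the MEF2 motif, 69 to 60 bases before its start, which 2.92% of all windows hold, and E-boxes of other letters. In the window of Ryr1 no E-box was found, and it held the one C/EBP match among the 6 genes, 70 to 63 bases before its start; 9.57% of all windows hold such a match. These are matches of letters and not measured binding.

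The voltage sensor and the release channel were both lower. Ryr1, the calcium release channel of skeletal muscle (ENSMUSG00000030592, chromosome 7 from 29003344 to 29125179, minus strand of GRCm38), had 3.88 and 6.43 CPM in C/EBPβ cells, against 11.1 and 19.3 CPM in empty vector cells. The groups did not overlap, and replicate 2 was the higher library in each (log2 fold change -1.53, SE 0.29, adjusted p = 0.00601). Cacna1s encodes the pore-forming and voltage-sensing subunit of the tubule channel (chromosome 1 from 136052750 to 136119822, plus strand). It had 0.236 and 0.457 CPM in C/EBPβ cells, against 1.41 and 1.77 CPM in empty vector cells. That is 9 and 42 counts against 58 and 67, a log2 fold change of -2.07 (SE 0.33, adjusted p = 0.00257). With a library left out its log2 fold change ran from -2.73 (without C/EBPβ replicate 2) to -1.79, and that of Ryr1 from -1.97 to -1.08.

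Cacng1, the gamma subunit of the same channel (chromosome 11 from 107703218 to 107716522, minus strand), was far more abundant. Its levels were 59.9 and 69.3 CPM in C/EBPβ cells, against 121 and 119 CPM in empty vector cells. Replicates lay close together in both groups, and the fall of 0.89 on the log2 scale had an SE of 0.09 (adjusted p = 3.29e-04). Stac3, an adaptor needed for the channel to reach the tubule and couple to the release channel (chromosome 10 from 127501686 to 127508823, plus strand), had 5.85 and 7.27 CPM in C/EBPβ cells. In empty vector cells it had 12.6 and 13.4 CPM (log2 fold change -0.97, SE 0.14, adjusted p = 0.00177). In both genes the groups were separated by more than the spread between replicates.

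The pump and most of the store proteins also fell. Atp2a1, the fast-muscle calcium pump SERCA1 (chromosome 7 from 126445858 to 126463108, minus strand), had 5.24 and 7.52 CPM in C/EBPβ cells, against 18.9 and 23.9 CPM in empty vector cells. Its log2 fold change was -1.72 (SE 0.19, adjusted p = 3.92e-04). The gene Rabep2 lies on the opposite strand and overlaps it, and counting was by strand. Casq2, the cardiac-type calsequestrin that developing skeletal muscle also makes (chromosome 3 from 102086415 to 102146514, plus strand), had 0.786 and 1.86 CPM in C/EBPβ cells, against 4.47 and 5.87 CPM in empty vector cells. The C/EBPβ replicates differed by 2.37-fold, yet both lay below the empty vector pair (log2 fold change -1.87, SE 0.33, adjusted p = 0.00433). With a library left out its log2 fold change ran from -2.71 (without C/EBPβ replicate 2) to -1.47.

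Trdn, triadin, which ties calsequestrin to the release channel (chromosome 10 from 33083483 to 33476709, plus strand), was counted 6 and 16 times in C/EBPβ cells, against 43 and 33 times in empty vector cells. On the CPM scale these are 0.157 and 0.174 against 1.05 and 0.872. The log2 fold change of Trdn was the lowest in the set (-2.49, SE 0.33, adjusted p = 0.00105), though on these low counts. Casq1, the skeletal calsequestrin (chromosome 1 from 172209894 to 172219868, minus strand), was near the limit of detection in both groups. It had 9 and 16 counts in C/EBPβ cells and 12 and 11 counts in empty vector cells, or 0.236 and 0.174 CPM against 0.292 and 0.291 CPM. Its log2 fold change was -0.57 (SE 0.41, adjusted p = 0.353), with a 95% interval of -1.51 to 0.37, so a fall as large as that of Stac3 was not distinguishable from none at this depth.

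The junctophilins, which span the gap between tubule and reticulum, gave 1 small fall and 1 gene that was not called. Jph1, the skeletal form (chromosome 1 from 16964560 to 17097889, minus strand), had 17.5 CPM in each of the 2 C/EBPβ libraries, against 23.4 and 24.3 CPM in empty vector cells. Although small, the difference of -0.44 on the log2 scale exceeded the spread between replicates (SE 0.10, adjusted p = 0.0120). Jph2, the form shared with the heart (chromosome 2 from 163336242 to 163397993, minus strand), had 141 and 127 CPM in C/EBPβ cells, against 134 and 137 CPM in empty vector cells. Here the empty vector libraries lay between the C/EBPβ libraries. With 5392 and 11708 counts in C/EBPβ cells and 5514 and 5171 in empty vector cells, the log2 fold change of Jph2 was -0.01 (SE 0.09, adjusted p = 0.943), and its 95% interval ran from -0.21 to 0.18. The sign turned when C/EBPβ replicate 2 was left out and under a stricter low-count filter.

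Replicates were not equally tight across the set. In C/EBPβ cells 7 of the 10 genes were higher in replicate 2 than in replicate 1, by 1.94-fold for Cacna1s and 1.66-fold for Ryr1. In empty vector cells 7 of the 10 were likewise higher in replicate 2. Levels of Myog in replicates 1 and 2 were 5.32 and 10.9 CPM for C/EBPβ, but 61.0 and 51.4 CPM for the empty vector. C/EBPβ replicate 2 was also the most deeply sequenced library. When its counts were thinned at random to the total of replicate 1, an alternative chosen after seeing the data, 8 of the 10 genes were still called lower. Among the empty vector libraries the widest ratio of replicate 2 to replicate 1 was that of Ryr1, at 1.74.

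Levels of different genes were compared as TPM, a relative level in which counts are first divided by the summed exon length of each gene. Cacng1 led the set with 170 ± 18.2 TPM in C/EBPβ cells and 313 ± 9.68 TPM in empty vector cells (SD, n = 2 per group, as for all TPM and shares here). Jph2 came second in both groups, at 104 ± 7.13 TPM in C/EBPβ cells and 104 ± 5.97 TPM in empty vector cells. In empty vector cells Atp2a1 (20.1 ± 4.18 TPM), Stac3 (16.7 ± 1.42) and Jph1 (15.5 ± 1.09) formed the next tier, and neighbours within it were not separated beyond their spread. In C/EBPβ cells the order within that tier was Jph1 (11.5 ± 0.0199 TPM), Stac3 (8.48 ± 1.34) and Atp2a1 (6.03 ± 1.55). Casq2 followed, at 1.59 ± 0.920 TPM in C/EBPβ cells and 6.19 ± 1.44 TPM in empty vector cells. Ryr1 stood at 0.776 ± 0.275 TPM in C/EBPβ cells and 2.29 ± 0.967 TPM in empty vector cells. Cacna1s, Trdn and Casq1 were below 1 TPM in both groups. RNA of the tubule channel's subunits was thus unequal, with Cacng1 the most abundant gene of the set and Cacna1s among the 3 rarest.

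Most of the 10 genes have close relatives that do the same work in other tissues. Of 20 listed paralogues and alternative channel subunits, 10 had enough counts to test. Of these 4 rose, none fell and 6 did not pass, against 14.1% of all tested genes called higher and 10.8% lower. No faller among 10 genes lies close to that 10.8%. No paralogue was lower at an unadjusted p below 0.05 in the edgeR fit, and none was called lower under DESeq2 or with no filter. Of the risers, Cacna1d and Cacna1g, described below, passed the low-count filter only through their C/EBPβ libraries, where they are high. With no filter 4 of 19 tested paralogues were called higher. Ryr3, the release channel of embryonic muscle and other tissues, had 11.4 and 10.3 CPM in C/EBPβ cells, against 6.47 and 7.90 CPM in empty vector cells. Its log2 fold change was 0.59 (adjusted p = 0.0202), which no longer passed when C/EBPβ replicate 1 (adjusted p = 0.0611) or empty vector replicate 1 (0.0811) was left out. As a share of ryanodine receptor TPM, Ryr1 made up 22.7% and 35.2% in the C/EBPβ libraries, against 59.9% and 68.0% in the empty vector libraries. Ryr3 held nearly all of the rest, since Ryr2 had 3 counts in each C/EBPβ library and 0 in the empty vector libraries. The exact two-sided permutation p of each family share that did not overlap between groups was 0.333, the smallest that 2 against 2 libraries can give.

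Among the L-type channel genes, Cacna1d, a channel of neurons and pacemaker cells, was counted 104 times over the C/EBPβ libraries and 2 times over the empty vector libraries. That is a ratio of 31.2 (95% counting interval 8.43 to 261, counting error only), at 1.02 and 0.707 CPM in C/EBPβ cells (adjusted p = 0.00119). The fitted log2 fold change of Cacna1d was 8.55 without empty vector replicate 1, which leaves a lone library at 0 counts and so gives no bound, and 4.04 without empty vector replicate 2. Cacna1s made up 24.6% and 47.4% of the TPM of Cacna1s, Cacna1c and Cacna1d in the C/EBPβ libraries, against 97.1% and 100% in the empty vector libraries. All of these transcripts are rare, and the share moved with the fall of Cacna1s and with the gain of Cacna1d. Cacng7, a relative of Cacng1 known from brain, rose by 1.21 on the log2 scale (adjusted p = 0.0147), at 1.99 and 1.58 CPM in C/EBPβ cells against 0.900 and 0.608 CPM in empty vector cells. Leaving out empty vector replicate 2 ended that call (adjusted p = 0.0839). The fourth riser, Cacna1g, a T-type channel named here after its values were seen, had 25 and 31 counts in C/EBPβ cells and 6 and 3 in empty vector cells.

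The abundant relatives were not called. Atp2a2, the pump SERCA2 of slow muscle, heart and most other cells, had 499 and 504 CPM in C/EBPβ cells, against 459 and 483 CPM in empty vector cells (log2 fold change 0.09, 95% interval -0.11 to 0.30). Per length it made up 97.8% and 96.9% of SERCA TPM in C/EBPβ cells and 93.0% and 91.8% in empty vector cells. Atp2a1 made up 1.80% and 2.53% in C/EBPβ cells and 6.69% and 7.94% in empty vector cells, and Atp2a3 was not called (adjusted p = 0.174). Stac2, a relative of Stac3 expressed in neurons, had 188 and 202 CPM in C/EBPβ cells, against 202 and 208 CPM in empty vector cells (log2 fold change -0.07, 95% interval -0.27 to 0.12, adjusted p = 0.572). Stac3 was 3.69% and 4.25% of STAC family TPM in C/EBPβ cells and 7.15% and 7.34% in empty vector cells. Of the beta subunits of calcium channels, Cacnb2 and Cacnb3 were not called, with 95% intervals of -0.50 to 0.31 and -0.09 to 0.27. Cacnb1, the beta subunit of the skeletal muscle channel, named here after its values were seen, had 15.1 and 15.9 CPM in C/EBPβ cells, against 20.3 and 22.6 CPM in empty vector cells (log2 fold change -0.46, SE 0.11, adjusted p = 0.0156).

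Within the set itself, Casq2 was the more abundant calsequestrin and Jph2 the more abundant junctophilin in every library. Casq1 made up 29.6% and 11.6% of calsequestrin TPM in C/EBPβ cells, on 9 and 16 counts, and 8.38% and 6.5% in empty vector cells. Jph1 made up 9.55% and 10.4% of junctophilin TPM in C/EBPβ cells and 12.9% and 13.1% in empty vector cells.

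**Figure D3:**
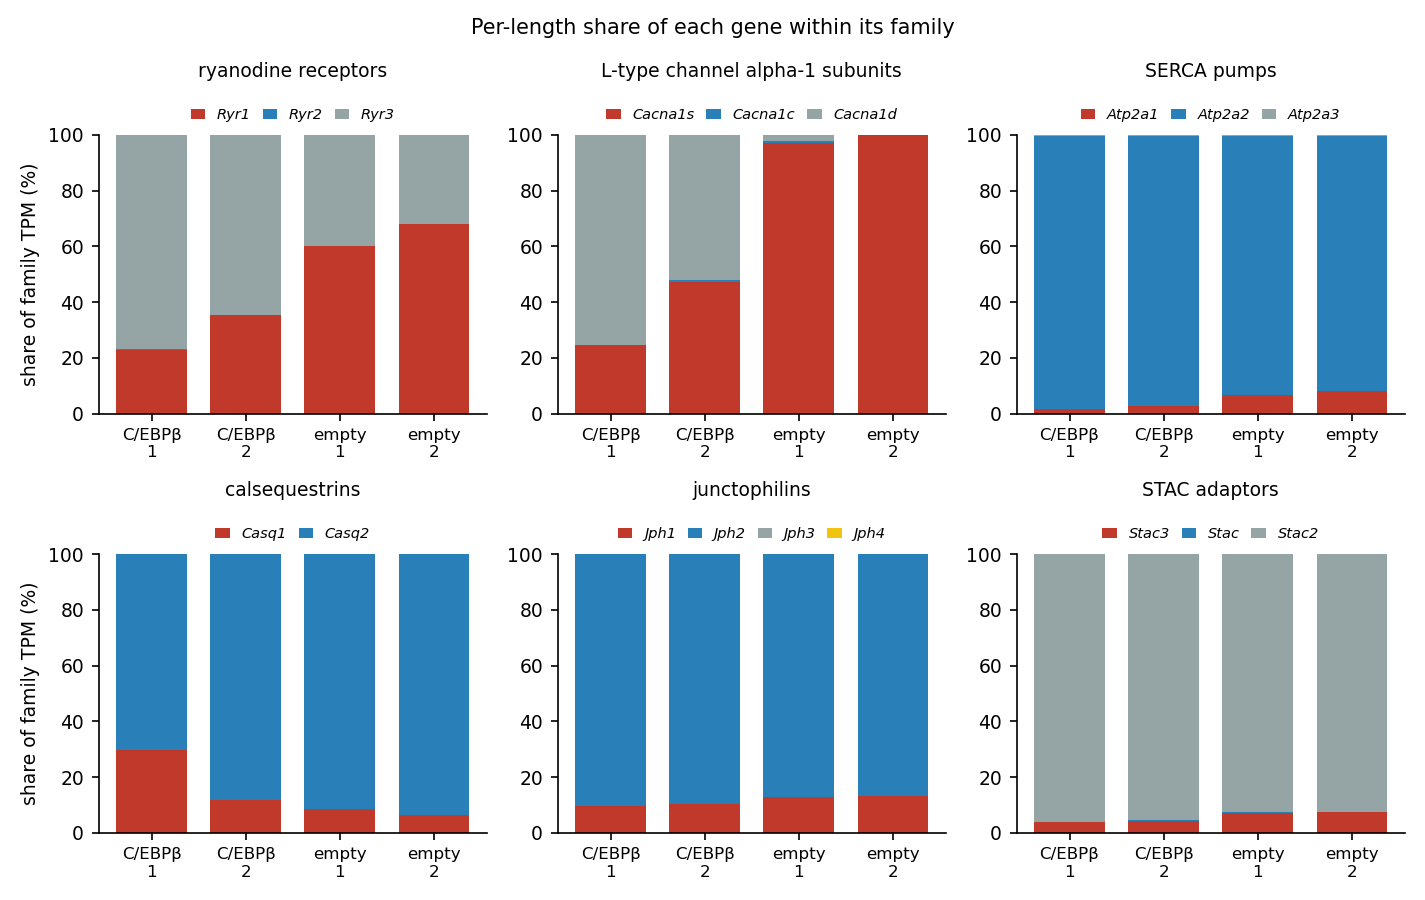
Share of each gene in the summed TPM of its family, in percent, for the 2 C/EBPβ libraries (left bars) and the 2 empty vector libraries (right bars). The share in red at the base is smaller in C/EBPβ libraries for Ryr1 (22.7% and 35.2% against 59.9% and 68.0%) and Cacna1s (24.6% and 47.4% against 97.1% and 100%), while Atp2a2, Casq2, Jph2 and Stac2 hold most of their families in all 4 libraries.

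Of 30 other listed muscle proteins, mostly of the triad, the sarcoplasmic reticulum and the muscle membrane, 25 could be tested. Of these 13 fell, 3 rose and 9 did not pass, against 10.8% of all tested genes called lower and 14.1% higher. Their median log2 fold change was -0.40, and that of all tested genes 0.00. Klhl40, a muscle protein that stabilises thin-filament components, had 0.131 and 0.218 CPM in C/EBPβ cells, against 1.90 and 1.77 CPM in empty vector cells (log2 fold change -3.27, adjusted p = 2.14e-04). Klhl40 passed the low-count filter only through its empty vector libraries, as did the fallers Smpx and Scn4a, named here after their values were seen. With no filter 13 of 29 tested genes of this list were called lower. Srl, sarcalumenin, a calcium-binding protein of the sarcoplasmic reticulum, fell by 1.71, and Ank1, whose small form anchors the reticulum to the contractile fibre, by 1.03. The risers were Hspb6, a small heat shock protein (1.03), Dysf, dysferlin, which serves membrane repair and the tubule (0.91), and Kcnj2, an inward-rectifier potassium channel (0.67), all with adjusted p of 0.00314 or less.

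Of 13 tested genes for calcium-binding proteins of the general endoplasmic reticulum 7 rose, 6 did not pass and none fell, against 14.1% of all tested genes called higher. None was lower at an unadjusted p below 0.05, and under DESeq2 9 rose and none fell. Rcn3, reticulocalbin 3, had 190 and 137 CPM in C/EBPβ cells, against 51.0 and 33.5 CPM in empty vector cells (log2 fold change 1.95, adjusted p = 3.59e-04). Calr, calreticulin, the main calcium-buffering protein of the reticulum in cells without calsequestrin, had 2582 and 2499 CPM in C/EBPβ cells, against 1523 and 1386 CPM in empty vector cells (0.80, adjusted p = 0.00126). Nucb2, nucleobindin 2, rose by 0.62. Without C/EBPβ replicate 1 the number of risers in this list was 3.

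Of 11 tested store-operated entry and IP3 receptor genes 2 rose and 1 fell, close to the share of all tested genes called (14.1% higher and 10.8% lower). Orai2, a plasma membrane channel for store-operated entry, rose by 0.83 and Itpr2, an IP3 receptor, by 0.43, whereas the receptor Itpr3 fell by 0.47; Itpr2 did not pass when empty vector replicate 1 was left out (adjusted p = 0.0611). Among genes for calcium extrusion, buffering and mitochondrial uptake 6 of 14 fell and 4 rose. Atp2b1, a plasma membrane calcium pump, had 128 and 157 CPM in C/EBPβ cells, against 279 and 350 CPM in empty vector cells (-1.14, adjusted p = 5.81e-04). Its relative Atp2b4 rose by 0.70. The sodium-calcium exchangers Slc24a3 and Slc8a1 rose by 1.45 and 1.22, and Mcu, the pore of the mitochondrial uniporter, fell by 0.54. Of 16 tested calcineurin and calmodulin kinase genes 5 rose and 2 fell. Nfatc4, Nfatc1 and Ppp3ca, which are 2 targets and a catalytic subunit of calcineurin, rose by 1.82, 1.04 and 0.72, while Camk2a and Rcan2, an inhibitor of calcineurin, fell by 1.10 and 0.67. Camk2a did not pass when empty vector replicate 1 was left out (adjusted p = 0.0524).

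**Figure D4:**
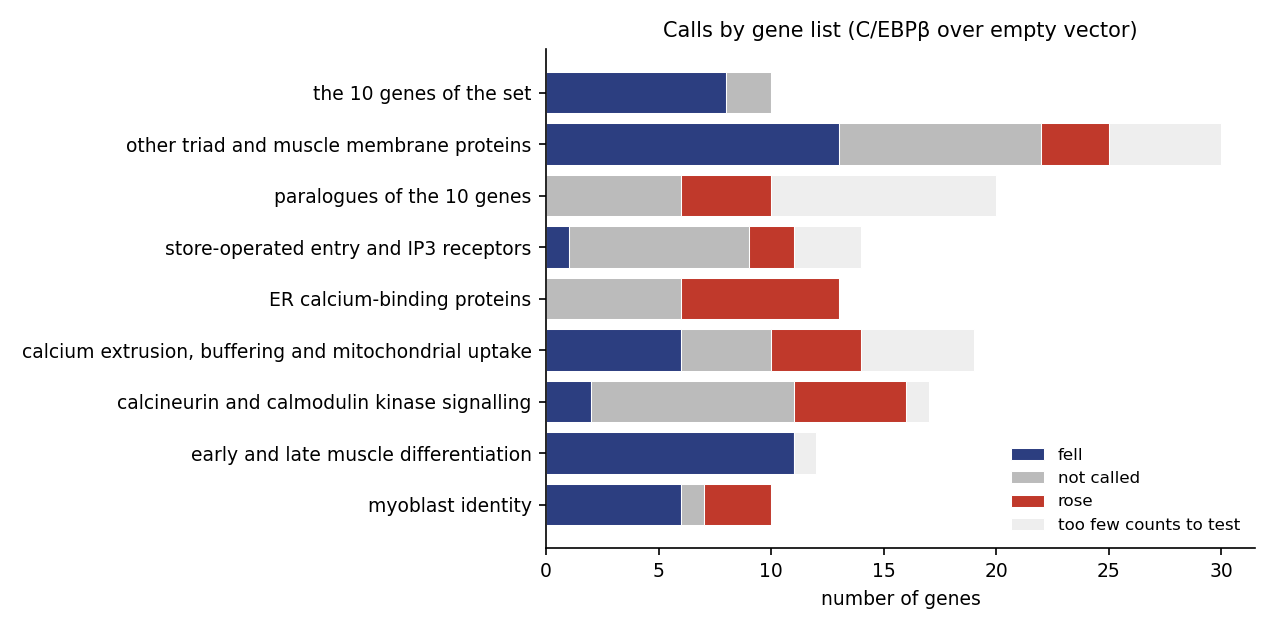
Number of genes in each list that fell, rose, were not called, or had too few counts to test, in C/EBPβ over empty vector cells. The set of 10 (8 fell), the other triad and muscle membrane proteins (13 of 25 tested fell) and the differentiation genes (11 of 11 tested fell) have the longest dark blue bars, whereas no paralogue and no gene of the endoplasmic reticulum list fell. Of all tested genes 10.8% were called lower. Some genes in these lists passed the low-count filter only through the group in which they were higher.

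Muscle and other marker genes moved beside these groups. Acta1, Tnnt3 and Mylpf, which encode contractile proteins, fell, with log2 fold changes of -1.87, -2.14 and -2.45. Of 10 myoblast genes 6 fell and 3 rose, against 10.8% of all tested genes called lower and 14.1% higher. Itga7, Cdh15 and Chrna1 fell by 1.42, 1.25 and 0.74, and Pax7, Myf5 and Ncam1 rose by 0.94, 0.60 and 0.51 (without C/EBPβ replicate 1, Ncam1 had adjusted p = 0.0820 and Myod1 0.152). Of 7 tested smooth muscle and mural markers 4 rose, among them Cnn1 (4.71), Tagln (2.07) and Acta2 (1.34), and the 10 listed summed to 3986 and 2830.1 CPM in C/EBPβ cells against 1673 and 1239 CPM in empty vector cells. Among cardiac markers Nppb and Gata4 fell and Nkx2-5 rose, with Nppa at 0 counts in every library. Fibroblast markers summed to 440 and 385 CPM in C/EBPβ cells and 443 and 385 CPM in empty vector cells. Most of each sum was Ly6a, named here after its values were seen, which was not called (288 and 251 against 321 and 286 CPM). Pdgfra, Mfap5 and Pi16 were called higher (log2 fold changes 2.57, 3.74 and 1.35) and Cd34 lower (-0.70), with Tcf21 at 0. Leukocyte markers summed to at most 38.5 CPM, with Tyrobp, Adgre1, Itgam and Cd3e at 0 counts in every library. Lyz2, Cd14 and Csf1r were called higher (log2 fold changes 5.88, 0.72 and 1.33). Lyz2 had 7.50 and 4.88 CPM in C/EBPβ cells, against 0.146 and 0.0529 CPM in empty vector cells. Endothelial markers summed to at most 13.9 CPM, with Vwf called higher and Flt1 lower. Lyz2, Vwf and the smooth muscle riser Kcnj8, named here after its values were seen, passed the low-count filter only through their C/EBPβ libraries. The part of all these muscle and other marker genes in the results for the 10 genes was not tested.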

How the data were processed

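The deposited counts are whole-number fragment counts per gene. Per the file headers featureCounts 1.5.1 counted read pairs against GENCODE M12 with the reverse strand setting, while the submitters' processing notes name featureCounts 1.4.6, HISAT2 2.0.4, DESeq2 and GRCm38; multi-mapping reads were not counted. The authors' deposited table was only described. Its columns, as deposited, are a base mean (signal), the log2 fold change and the error of that log2 value, a test score, and raw and adjusted p-values.

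Symbols came from the reference names. Of 49585 genes, 15078 passed filterByExpr of edgeR 4.0.16 (R 4.3.3) and were compared by its quasi-likelihood test with TMM scaling, C/EBPβ over empty vector. TPM used the lengths in the count files. Intervals of fold changes used the t distribution of that fit. RefSeq promoter windows were searched on both strands. DESeq2 1.42.0 and limma-voom (limma 3.58.1) were alternatives. The fit was tested on simulated data with known changes.

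The 10 genes, lists, motifs and tests were chosen with earlier results of these data known. Genes named are the 10, up to 3 called genes per list and direction by adjusted p, paralogues with a mean of at least 0.5 CPM, Cebpb, Myog and Myod1. Some genes that this rule names are not reported here. Within each group the libraries differed by more than sampling noise. Replicate numbers come from the titles, and the labels do not say that they pair libraries.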

Additional observations from a re-analysis of the deposited data

How the results depend on the processing

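Of the 10 genes, 8 were called lower under RLE scaling, library totals, no low-count filter, DESeq2, limma-voom, the replicate block, thinning of C/EBPβ replicate 2 (added after seeing the data) and without each library in turn (8 to 8). A filter of 5 CPM in 2 libraries left 6 of them, of which 5 were called. The log2 fold change of Jph2 turned sign under that filter (0.0044) and when C/EBPβ replicate 2 was left out (range with a library left out -0.0882 to 0.0618), and that of Cacnb2 when empty vector replicate 1 was (-0.28 to 0.12). The cause was not tested. With a library left out, 2493 to 3462 genes were called, 1527 to 2076 higher and 966 to 1386 lower, the fewest without C/EBPβ replicate 1.

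In the lists, the stricter filter left 6 fallers among triad and muscle membrane proteins, 1 riser among paralogues and 1 faller among calcineurin and calmodulin kinase genes, on fewer genes tested. No filter and the replicate block each gave 5 risers among triad and muscle membrane proteins, and thinning gave 2 fallers among store-operated entry and IP3 receptor genes. Leaving out libraries gave 2 to 4 risers among paralogues, 1 to 2 risers and 1 to 2 fallers in the store-operated list, 3 to 7 risers among reticulum proteins and 3 to 5 fallers in the extrusion and uptake list. Calls were also lost for Cd34 (adjusted p = 0.0751 without empty vector replicate 1), Csf1r (0.0987) and Vwf (0.0643, both without empty vector replicate 2) and Flt1 (0.0550 when C/EBPβ replicate 2 was left out and 0.0533 for empty vector replicate 1). Log2 fold changes of Cnn1, Mfap5, Lyz2 and Csf1r without empty vector replicate 1 were 5.33, 4.33, 6.79 and 2.0, and that of Myog without C/EBPβ replicate 2 was -3.40. Shares within families are the same with FPKM by arithmetic, so FPKM is no check on them.

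Replicate numbers are shared by the groups, and with 2 pairs the correlation of replicate differences was 0.15 over genes. The replicate block called 4536 genes against 3759 without it. Counts under 100 per library for Cacna1s, Trdn and Casq1 limit their precision, and multi-mapping reads were not counted. Casq2 had 30 counts in C/EBPβ replicate 1, which limits its precision as well.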

Other observations

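The authors' deposited table gave a negative log2 fold change for each of the 10 genes, and an adjusted p below 0.05 for the same 8 genes that were called lower here. Its libraries may include those used here, so the match is not taken as independent evidence. In the authors' deposited table the value was -2.28 for Trdn, -1.89 for Cacna1s, -1.83 for Casq2, -1.75 for Atp2a1, -1.56 for Ryr1, -1.02 for Stac3, -0.93 for Cacng1 and -0.49 for Jph1. Casq1 (-0.58, adjusted p = 0.350) and Jph2 (-0.05, adjusted p = 0.811) did not pass in the authors' deposited table. That table does not state its direction.

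The base means in the authors' deposited table exceeded the highest count of any of the 4 libraries for each of the 10 genes. The ratio of base mean to highest count was 105 for Casq2, 75.5 for Cacna1s, 28.3 for Casq1, 26.8 for Atp2a1, 16.2 for Ryr1 and 10.3 for Trdn. It was 4.39 for Stac3, 1.77 for Jph1, 1.38 for Cacng1 and 1.14 for Jph2. Which libraries entered the base mean is not stated in the sources used here.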
